A study of Mus musculus with 18 samples.

Results

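Expression of 10 genes of the neuronal cytoskeleton and of axonal transport was followed across sorted epithelial cells and crypts of the mouse colon. They were taken by gene name from the 52636 genes of the deposited tables, and all 10 were found. By role they comprised the microtubule-associated proteins *Map1b*, *Map2*, *Mapt* (tau) and *Dcx* (doublecortin), the neurofilament chains *Nefm* and *Nefl*, the neuronal β-tubulin *Tubb3*, the stathmin *Stmn3*, which binds tubulin dimers, and the kinesin motors *Kif1a* and *Kif5c*. In neurons, microtubules serve as the tracks along which kinesins carry vesicles outwards, associated proteins stabilise and space these tracks, and neurofilaments fill the axon and set its calibre. *Kif1a* carries precursors of synaptic vesicles and dense-core vesicles, and *Kif5c* is the neuron-rich heavy chain of conventional kinesin. Enteroendocrine cells, the hormone-secreting cells of the gut epithelium, also hold dense-core granules and can extend basal processes towards nerve fibres.

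The study asked what the receptor gene *Olfr78* does in these cells, by RNA sequencing of 18 libraries from adult mice. In the Olfr78-GFP line, a GFP-IRES-tauLacZ cassette takes the place of the coding exon, so that GFP marks cells in which the locus is active. Heterozygous (HE) cells carry 1 copy of the cassette and homozygous cells, labelled Olfr78 KO, carry 2. The 6 sorted libraries comprised 2 samples of Epcam+ve/GFP-ve cells (GFP-ve samples) from 1 wild-type (WT) mouse, 2 pools of Epcam+ve/GFP+ve cells from HE mice (HE pools) and 2 such pools from homozygous mice (KO pools), each pool from 2 mice. The other 12 libraries were colon crypts, 1 mouse each, from 2 WT and 5 KO mice of this line and from 3 control and 2 eKO mice of a line in which Cre, driven by the Vil1 promoter in intestinal epithelium, deletes a floxed *Olfr78*. Controls of that line carry Cre without the floxed allele or the floxed allele without Cre. The labels give the library of eKnockout mouse 2 the same genotype, WT/HO, as control mouse 2.

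Values are in CP20M, a gene's reads scaled to 20000000 per library. Recovered reads on genes ranged from 532703 to 2237475 in the sorted libraries, with the lowest in KO pool 1, and from 6175298 to 10995286 in the crypts. The targeted gene *Olfr78* was at 4822 and 4401 CP20M in HE cells and at 977 and 837 in the KO pools. In crypts it was at 88 and 111 in WT, 7 to 42 in KO, 61 to 124 in controls and 21 in eKO mouse 1. The library labelled eKnockout mouse 2 was at 73, within the control range, and comparisons that use it are also given without it. It also held *Myh11* of smooth muscle at 426 CP20M, against 27 to 216 in controls and 87 in eKO mouse 1. The enteric neuron marker *Nos1* was at 51 there, against 0 to 10 in controls, while *Col1a1* at 388 lay within their 27 to 454. The study reports that *Olfr78* outside the epithelium is kept in eKO mice. The part of such cells in the value of 73 was not tested. The labels call all 6 sorted libraries enteroendocrine, but the 8 enteroendocrine markers summed to at most 12953 CP20M in the GFP-ve samples, against 852491 to 1102738 in the HE pools and 356885 to 597822 in the KO pools. Among enteric neuron markers, *Hand2* and *Vip* were at 0 in all 6 sorted libraries. The list of these markers still summed to 1282 to 1544 CP20M in the HE pools and 616 to 1053 in the KO pools against 52 to 108 in the GFP-ve samples, and most of the HE sum was *Ret*, at 1462 and 1201 CP20M.

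The start-site sequences of the members were compared before their levels. RefSeq windows on GRCm38.p6, from 250 bases before to 50 bases after a start site, were at hand for 7 members. *Mapt*, *Nefl* and *Nefm* had none in the table used here. Windows of *Map1b* (chr13:99516553-99516852, minus strand), *Kif1a* (chr1:93101825-93102124, minus strand) and *Kif5c* (chr2:49619036-49619335, plus strand) are printed because all 3 carry the letters CAGCACC or their reverse complement GGTGCTG, in capitals, within the 50 bases after the start. *Kif1a* holds a further match near the upstream end of its window, also in capitals.
Map1b: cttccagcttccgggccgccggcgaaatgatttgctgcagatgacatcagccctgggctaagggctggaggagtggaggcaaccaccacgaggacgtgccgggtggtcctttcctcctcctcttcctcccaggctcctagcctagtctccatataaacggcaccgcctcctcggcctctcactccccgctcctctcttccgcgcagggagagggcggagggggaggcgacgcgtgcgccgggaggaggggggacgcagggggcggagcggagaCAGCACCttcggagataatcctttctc
Kif1a: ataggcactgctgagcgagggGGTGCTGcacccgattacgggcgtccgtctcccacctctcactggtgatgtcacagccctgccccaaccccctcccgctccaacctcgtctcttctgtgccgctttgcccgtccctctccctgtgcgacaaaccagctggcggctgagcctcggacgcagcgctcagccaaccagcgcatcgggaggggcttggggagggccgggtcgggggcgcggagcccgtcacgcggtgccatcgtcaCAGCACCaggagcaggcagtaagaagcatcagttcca
Kif5c: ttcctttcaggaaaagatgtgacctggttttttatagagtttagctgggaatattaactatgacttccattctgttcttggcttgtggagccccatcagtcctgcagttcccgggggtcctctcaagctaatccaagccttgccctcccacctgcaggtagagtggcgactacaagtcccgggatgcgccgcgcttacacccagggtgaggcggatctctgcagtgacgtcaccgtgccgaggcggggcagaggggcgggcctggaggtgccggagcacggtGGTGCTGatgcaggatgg
The same letters were present in the *Tubb3* window and in a further *Kif1a* window, and absent from those of *Map2*, *Stmn3* and *Dcx*. Of all 32851 windows, 7.14% held this motif on either strand, and 1.37% held it within the 50 bases after the start. The motif was singled out after the matches were seen, from 7 searched on both strands. TTCAGCACC (0.371% of all windows), which contains CAGCACC, and GGACAGCGC (0.405%) matched 0 of the 7 genes. GGACAG (22.2%), contained in GGACAGCGC, matched 3 genes, CANNTG (72.3%) 4, TATAAA (13.6%) 3 and GGGCGG (35.7%) 4. These matches describe the windows and were not tested.

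The first comparison set GFP+ve cells of HE mice against Epcam+ve/GFP-ve cells of a separate WT mouse. That mouse carries no cassette, so that cells with an active *Olfr78* locus are not removed from its samples, where *Olfr78* was at 135 and 21 CP20M, and cell type, genotype and animal cannot be told apart. *Map1b*, *Nefm*, *Kif1a* and *Kif5c* were called higher in the HE pools, at 47.8 to 89.6 times the GFP-ve level by pooled reads. Genes were called at an adjusted p under 0.001 and a log2 fold change beyond 2, from limma on log2(CP20M + 10). Of the 10 members, 8 had enough reads to be tested and 4 were called, against 1.58% of all 16355 genes tested that were called higher. The members, and the lists used below, were chosen with earlier results of these data known. The study itself ranks *Map1b* and *Kif1a* among the top genes of this comparison and reports *Nefm* as expressed in GFP+ve cells. Such counts are therefore descriptions only. *Nefm*, *Nefl*, *Kif5c* and *Stmn3* lay under 40 CP20M in both GFP-ve samples and passed the filter on low values through the HE pools alone, which fixed the direction of their differences. *Dcx* and *Tubb3* were too low to be tested. Both GFP-ve samples came from the same mouse, so that p-values measure the spread between these libraries, and an exact permutation test of 2 against 2 libraries could not go below p = 0.333. In such bulk libraries, fewer cells of a type and less RNA per cell cannot be told apart.

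**Figure D1:**
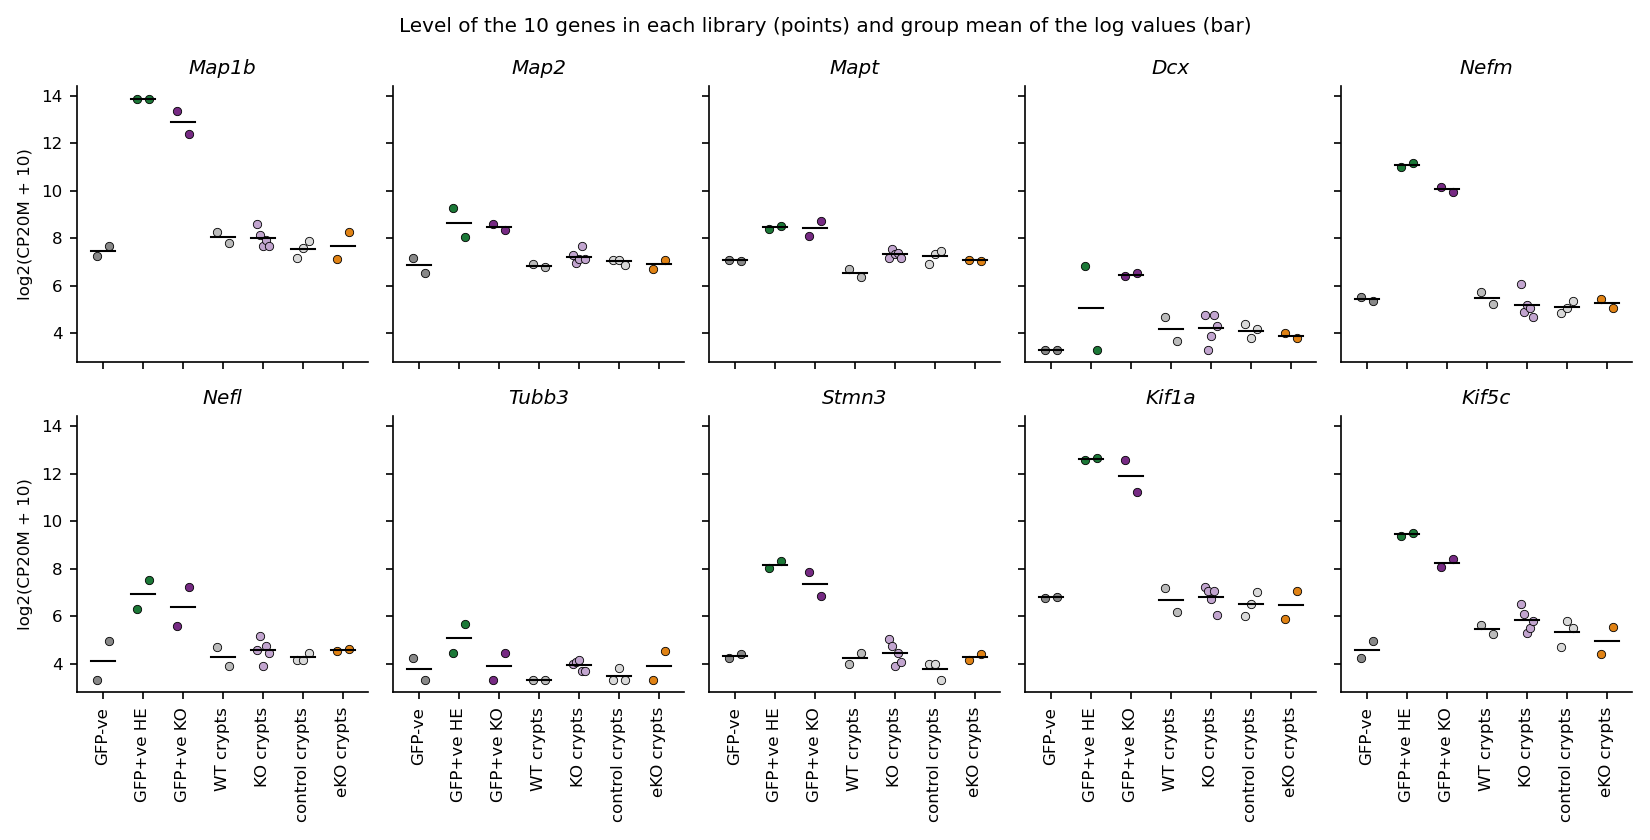
Level of each of the 10 members in every library (points, log2(CP20M + 10)) by group, with the group mean of the log values (bar). The GFP+ve pools lie above the GFP-ve samples and the crypts for *Map1b*, *Nefm*, *Stmn3*, *Kif1a* and *Kif5c*, and by less for *Map2* and *Mapt*.

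*Map1b* (chr13:99421446-99516540, minus strand, GRCm38), which encodes a microtubule-associated protein of growing axons, was at 144 and 196 CP20M in the GFP-ve samples and at 15097 and 14856 in the HE pools. The groups were far apart and the HE pools were within a few percent of each other. Among the 24118 genes with a read in the HE pools, *Map1b* ranked 56 by mean level, counted without regard to gene length. Its log2 fold change was 6.39 (SE 0.22, adjusted p = 3.2e-06, limma). *Map2* (chr1:66175273-66442583, plus strand), the dendritic relative of tau, was at 135 and 83 CP20M in the GFP-ve samples and at 610 and 254 in the HE pools. Its groups did not overlap but the HE pools were uneven, and the log2 fold change of 1.80 (SE 0.53, adjusted p = 0.041, limma) was not called. An antisense gene shares 124 exon bases with *Map2*, and the strand setting of the counting is not given in the sources used here.

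*Mapt* (chr11:104231390-104332090, plus strand) was at 126 and 124 CP20M in the GFP-ve samples and at 323 and 361 in the HE pools. The groups did not overlap, and the log2 fold change was 1.38 (SE 0.41, adjusted p = 0.042, limma), which was not called. The cassette in the GFP+ve cells encodes a fusion with tau, the *Mapt* product, and whether its reads were counted on *Mapt* was not tested. *Dcx* (chrX:143855842-143933311, minus strand), a microtubule-associated protein of migrating neurons, had 9 reads in HE pool 1 and 0 in HE pool 2 and in both GFP-ve samples. A single library thus carried all its reads in that comparison.

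*Nefm* (chr14:68082590-68124846, minus strand), the medium neurofilament chain, was at 36 and 31 CP20M in the GFP-ve samples and at 2026 and 2321 in the HE pools. The log2 fold change of *Nefm* was 5.65 (SE 0.35, adjusted p = 4.0e-05, limma). *Nefl* (chr14:68083863-68089095, plus strand), the light chain that assembles with it, was at 0 and 21 CP20M in the GFP-ve samples and at 70 and 174 in the HE pools. This amounted to 2 reads against 19, a ratio of 12.3 with a 95% Clopper-Pearson interval of 2.96 to 109 that covers counting error only. Its log2 fold change of 2.78 (SE 0.80, adjusted p = 0.037, limma) was not called. The *Nefl* gene lies on the opposite strand within the *Nefm* span and their exons share 1108 bases, so that reads there may not be told apart without strand.

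*Stmn3* (chr2:181306459-181314500, minus strand) was at 9 and 11 CP20M in the GFP-ve samples and at 254 and 307 in the HE pools, or 2 reads against 45. Pooled reads gave a ratio of 29.1, with a counting interval of 7.60 to 247. The log2 fold change of 3.86 (SE 0.58, adjusted p = 0.0030, limma) did not reach the threshold, and edgeR on the recovered reads called it at an adjusted p of 4.4e-04. *Tubb3* (chr8:123411424-123422015, plus strand), widely used as a marker of neurons, had 4 reads in all among HE cells, 1 in pool 1 and 3 in pool 2, and a single read in the GFP-ve samples. A difference was not detectable at this depth.

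*Kif1a* (chr1:93015464-93101951, minus strand) was at 99 and 103 CP20M in the GFP-ve samples and at 6134 and 6548 in the HE pools. Both groups were tight, and the log2 fold change was 5.84 (SE 0.23, adjusted p = 6.8e-06, limma). *Kif5c* (chr2:49619298-49774778, plus strand) was at 9 and 21 CP20M in the GFP-ve samples, 3 reads in all, and at 656 and 721 in the HE pools. Pooled reads gave a ratio of 47.8 with a counting interval of 15.9 to 235, and the log2 fold change was 4.85 (SE 0.53, adjusted p = 7.2e-04, limma). The call was lost with a pseudocount of 1 (adjusted p = 0.0059) and with all 6 sorted libraries in 1 limma fit (adjusted p = 0.0014). Without either HE pool, *Nefm* and *Kif5c* no longer reached the filter on low values in 2 libraries. *Map1b* and *Kif1a* were then called without HE pool 1, and *Map1b*, *Kif1a* and *Map2* without HE pool 2. Limma without a mean-variance trend called 0 of the 16355 genes, with 5289 at an unadjusted p under 0.05.

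Levels of different members were compared per kilobase of exon. In the HE pools *Map1b* was highest at 945 ± 10.8 CP20M per kilobase (SD, n = 2), followed by *Kif1a* at 680 ± 31.4, *Nefm* at 376 ± 36.1, *Stmn3* at 247 ± 33.0 and *Kif5c* at 96.4 ± 6.44. *Mapt* at 45.4 ± 3.57 lay below *Kif5c* by more than the spread of the pools. *Nefl* at 36.1 ± 21.8, *Map2* at 26.3 ± 15.3, *Tubb3* at 14.2 ± 10.98 and *Dcx* at 4.11 ± 5.81 followed, and from *Mapt* downwards each gap between neighbours was within the larger SD of the pair.

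Each member was then set within its gene family, as its share of the summed level per kilobase. *Map1b* made up 94.9% to 95.4% of the Map1 family in the HE pools and 91.1% to 97.9% in the KO pools, against 19.3% to 31.8% in the GFP-ve samples and 21.5% to 38.9% in the 12 crypt libraries, where *Map1s* was the main member at 45.9% to 59.8%. *Kif1a* held 55.7% to 61.2% of the Kif1 motors in the HE pools and 2.18% to 2.61% in the GFP-ve samples, where *Kif1c* held 74.5% to 77.0%. The KO pools were uneven, with *Kif1a* at 33.0% to 64.3% and *Kif1c* at 15.8% to 43.6%, and *Kif1c* led in KO pool 2. *Nefm* held 80.6% to 87.4% of the neuronal intermediate filaments in the HE pools. The leading family member thus differed between the HE pools and the GFP-ve samples in the Map1 and Kif1 families.

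*Kif5c* remained a minor part of its family. It held 7.63% to 8.13% of the kinesin-1 heavy chains in the HE pools, above 0.189% to 0.466% in the GFP-ve samples, and the ubiquitous *Kif5b* held 89.97% to 90.6%. *Map4*, the broadly expressed relative of *Map2* and *Mapt*, held 61.4% to 69.8% of that family in all 4 GFP+ve pools. *Stmn3* held 32.4% and 60.9% of the stathmins in the HE pools against at most 1.15% in the GFP-ve samples, and almost all of the rest was *Stmn1*. *Tubb3* was at most 0.884% of the β-tubulins in any library, while *Tubb4b*, *Tubb5* and *Tubb2a* made up most of that family. β-tubulin genes are alike in sequence, some more than others, and how reads shared between them were counted makes their split uncertain. *Dcx* was at most 6.98% of the doublecortin family, in which *Dclk1*, a tuft cell marker in the gut, held 65.2% to 75.7% in the GFP-ve samples and 3.09% to 3.17% in the HE pools.

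**Figure D2:**
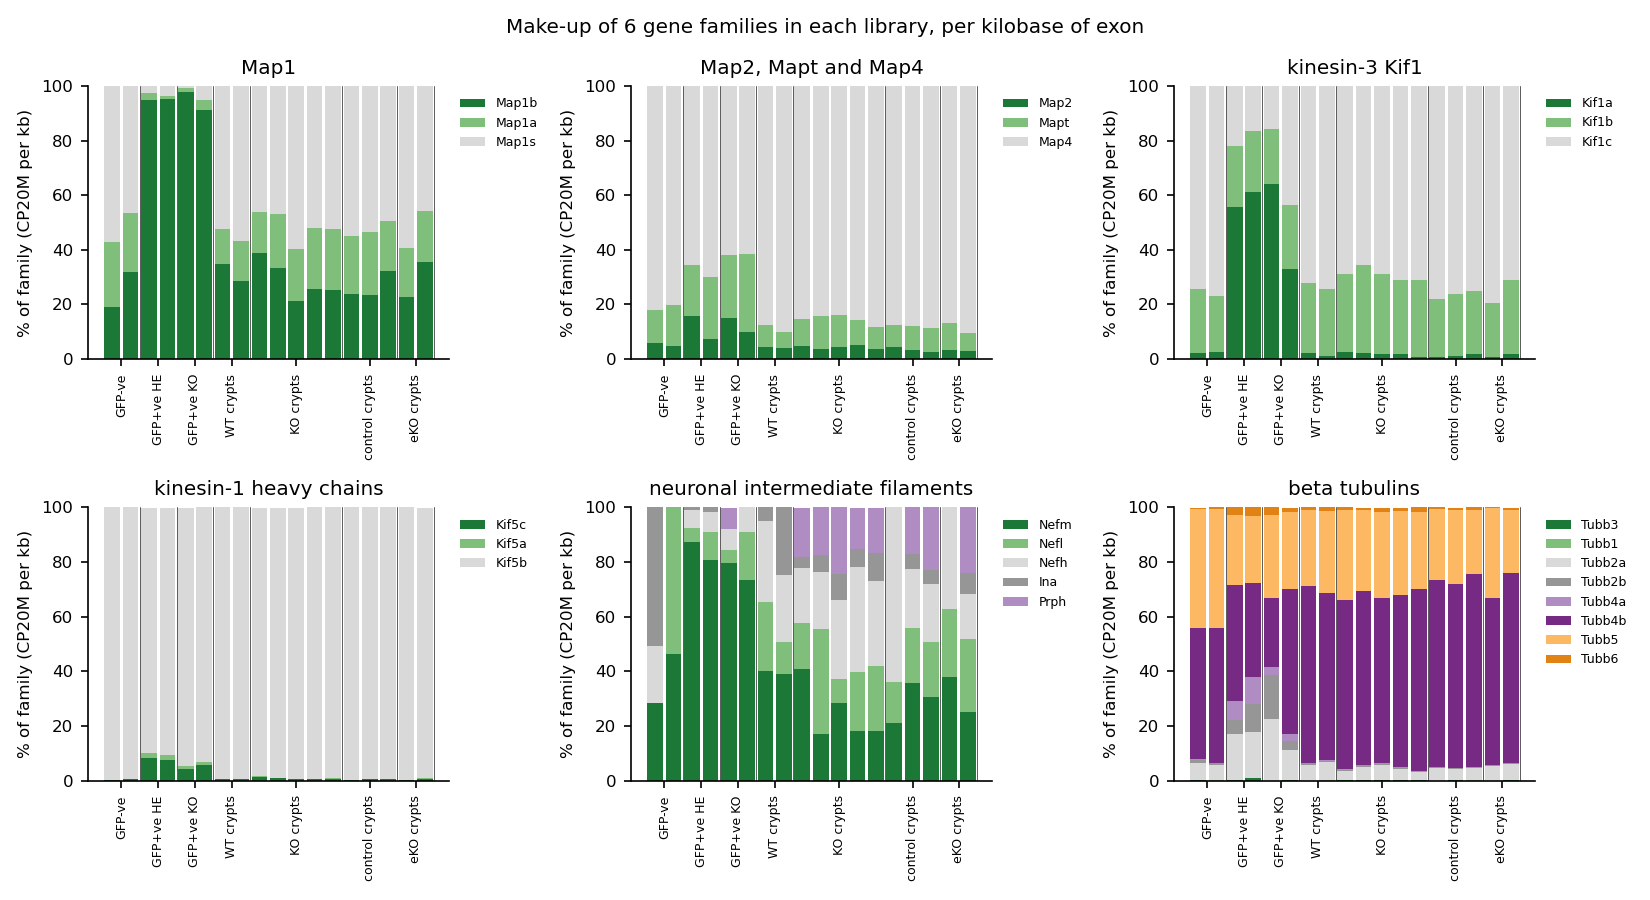
Make-up of 6 gene families in each library (stacked bars, percent of the family's summed CP20M per kilobase of exon), with libraries ordered by group. *Map1b*, *Kif1a* and *Nefm* make up most of their families in the HE pools, and *Kif5c*, *Map2*, *Mapt* and *Tubb3* do not.

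Genes outside the 10 were read from a list of 76 further cytoskeleton and transport genes, 23 of them family relatives of a member. Of 65 tested in the HE pools against the GFP-ve samples, 4 were called higher and 0 lower, against 1.58% of all genes called higher. The median log2 fold change of the 65 was 0.60, beside -0.05 for all genes tested, and genes near 0 in the GFP-ve samples passed the filter through the HE pools alone. The 4 were *Tuba1a*, a neuronal α-tubulin (log2 fold change 3.04), *Map9* (4.03), which binds microtubules, and the adaptors *Hap1* (3.84) and *Mapk8ip2* (4.99), which link cargo to kinesin and dynein. The study itself names *Hap1* among the neural markers seen in such cells. *Mapk8ip2* was at 27 and 11 CP20M in the GFP-ve samples and at 771 and 1001 in the HE pools. None of the 18 relatives tested by limma was called, 16 had an unadjusted p under 0.05 as did 37.2% of all genes tested, and their median log2 fold change was 0.95. Of these, *Kif5a*, the other neuronal heavy chain of kinesin-1, had no read in either GFP-ve sample and 150 and 161 CP20M in HE cells, a level at least 5.40-fold higher than a floor of 3 reads per library. *Tubb4a*, a neuronal β-tubulin, was at 45 and 0 CP20M in the GFP-ve samples and at 415 and 547 in the HE pools.

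The KO pools were set against the same 2 GFP-ve samples, which both comparisons share. *Map1b* was at 10400 and 5439 CP20M in the KO pools, *Kif1a* at 6083 and 2359, and *Nefm* at 1127 and 988. All were above every GFP-ve and crypt library, and by pooled reads they were 39.5, 32.3 and 30.5 times the GFP-ve level. *Kif5c* was at 263 and 326 CP20M and *Stmn3* at 226 and 105, again without overlap with the GFP-ve samples. *Map2* at 376 and 314, *Mapt* at 263 and 419, *Nefl* at 38 and 140 and *Dcx* at 76 and 82 were likewise higher in both KO pools than in both GFP-ve samples, while *Tubb3* was at 0 and 12. How many of all genes lay apart in this way was not counted, so that the separation describes the members only. In KO pool 1, 1 read was worth 37.5 CP20M, so that its values for *Nefl* and *Dcx* stood for 1 and 2 reads.

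By limma 0 of 8 members tested were called in that comparison, with 0% of all 15779 genes called and 2925 (18.5%) at an unadjusted p under 0.05. The lowest adjusted p of members were 0.017 for *Map1b* (log2 fold change 5.40, SE 0.39) and 0.024 for *Kif1a* (5.10, SE 0.49) and *Nefm* (4.62, SE 0.46). EdgeR and DESeq2 on the recovered reads each called these 3 members, among 31 and 238 genes, as did a limma fit of all 6 sorted libraries, among 33. *Dcx*, *Nefm*, *Kif5c* and *Stmn3* passed the filter through the KO pools alone, which fixed the direction of their differences. *Dcx*, at 0 in both GFP-ve samples, was at least 2.74-fold higher than the floor of 3 reads per library.

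**Figure D3:**
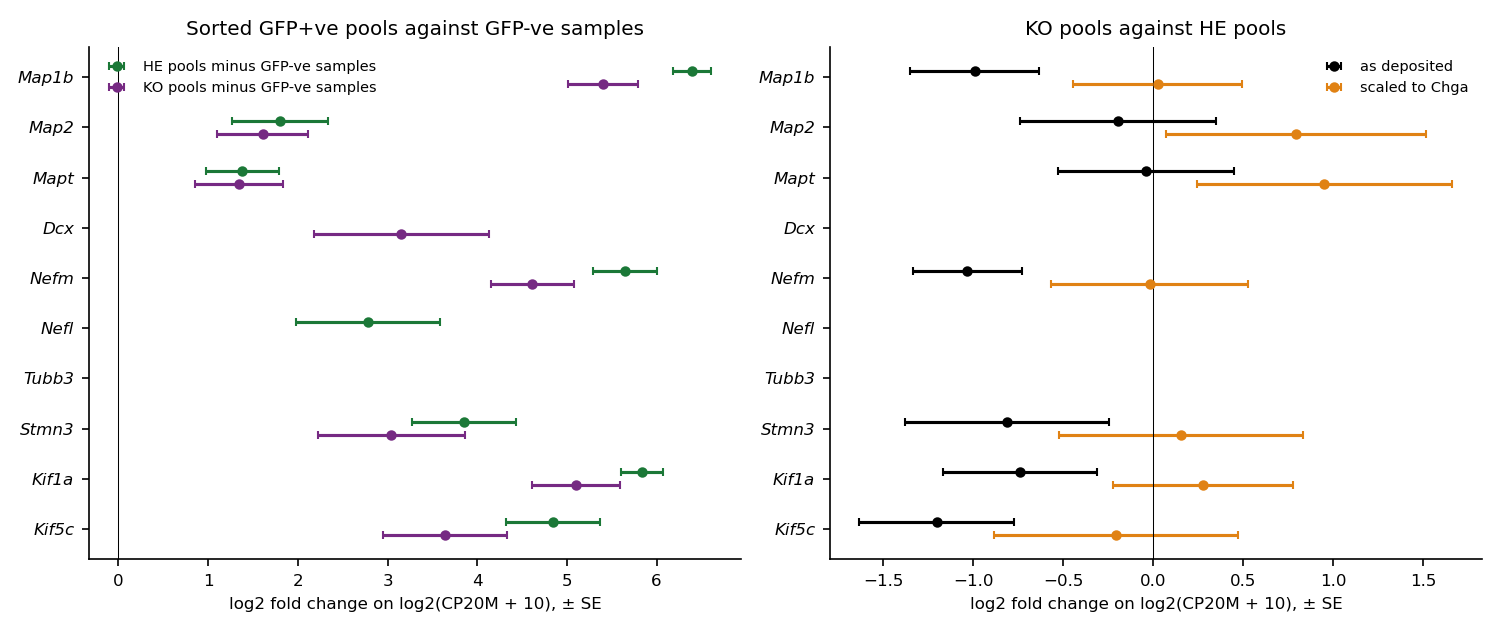
Log2 fold changes of the members (points, log2(CP20M + 10)) with their SE (bars) in the comparisons of sorted cells, n = 2 libraries per group. Left, against the GFP-ve samples, the members tested lie to the right of 0 in both genotypes, as the filter fixes for those under 40 CP20M in the GFP-ve samples. Right, KO pools against HE pools, they lie at or to the left of 0 as deposited and mostly near or to the right of 0 when scaled to *Chga*.

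The KO and HE pools were compared with each other to ask what the loss of the receptor does in these cells. The mean levels of *Map1b*, *Nefm*, *Kif5c*, *Kif1a* and *Stmn3* were lower in the KO pools, and both KO pools lay below both HE pools for each of these 5. The share of all genes in this order was not counted, and all genes tested had a median log2 fold change of -0.18 by limma. *Nefm* averaged 1057.5 ± 98.3 CP20M (SD, n = 2) in the KO pools against 2173.5 ± 209 in the HE pools, *Kif5c* 294.5 ± 44.5 against 688.5 ± 46.0 and *Map1b* 7919.5 ± 3508 against 14976.5 ± 170.4. *Kif1a* averaged 4221 ± 2633 against 6341 ± 293, and its value in KO pool 1 was close to that in HE pool 1. *Map2*, *Mapt* and *Nefl* overlapped between the genotypes, and the *Mapt* means were 341 ± 110.3 and 342 ± 26.9.

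Genes above 40 CP20M in all 4 pools were tested, which left 7 members. By limma at an adjusted p under 0.05, 0 of these 7 were called, with 0% of all 11892 genes called and 503 (4.23%) at an unadjusted p under 0.05. EdgeR called 0 genes and DESeq2 8, none of them members. *Nefm* (log2 fold change -1.03, SE 0.30), *Kif5c* (-1.20, SE 0.43) and *Map1b* (-0.99, SE 0.36) were the 3 members among those 503, and the adjusted p of all 7 lay between 0.93 and 0.995 by limma. The 7 log2 fold changes were all negative, with a median of -0.81 against -0.18 for all genes tested. *Mapt*, at -0.04, was positive under the scaling of edgeR (0.22), of DESeq2 (0.21) and of a median-of-ratios rescaling (0.12). Without KO pool 1, *Kif1a* (-1.42, adjusted p = 0.0052) and *Map1b* (-1.46, adjusted p = 0.0053) were called lower by limma, among 373 genes. That fit holds a single KO library, KO pool 2, and takes its spread from the HE pools.

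The study's own kind of criterion, by which the means must lie apart by over 2 of their average SDs and by over 1.5-fold, was also computed as a description. *Map1b* (log2 ratio of means -0.92), *Nefm* (-1.04) and *Kif5c* (-1.23) were past it, 3 of the 7 members, against 9.98% of all genes that were past it and lower. Of the enteroendocrine markers 5 of 8 were also past it and lower, among them *Chga*, the granule protein chromogranin A, with a log2 ratio of means of -0.99. *Chga* was at 242823 and 304540 CP20M in the HE pools and at 168049 and 107136 in the KO pools. Of the relatives, 4 of 17 were past it, namely *Kif5a*, *Nefh*, *Tubb4a* and *Tubb6*, and of the wider list 9 of 62, all lower.

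Other cell type markers also differed between the pools. The goblet cell list summed to 62176 CP20M in one KO pool and 310893 in the other, with 65395 to 140508 in the HE pools, and *Muc2*, its mucin, was at 54740 in KO pool 1 and 252362 in KO pool 2. The colonocyte gene *Car1* was at 4318 and 35383 in the KO pools. KO pool 2, which had the higher *Muc2* and *Car1*, also had the lower *Map1b*, *Map2*, *Nefm*, *Kif1a* and *Stmn3*, but the higher *Mapt*, *Nefl* and *Kif5c*. The part of these markers in the members' levels was not tested.

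Member levels were therefore also expressed per 1000 CP20M of *Chga*, a scaling chosen after the data were seen. On this scale *Map1b* was at 41.1 and 58.0 in the GFP-ve samples, 62.2 and 48.8 in HE cells and 61.9 and 50.8 in KO cells. The 3 groups overlapped. *Kif1a* was at 28.3 and 30.5, 25.3 and 21.5, and 36.2 and 22.0, and *Nefm* at 10.3 and 9.17, 8.34 and 7.62, and 6.71 and 9.22, in the same order. *Kif1a* and *Nefm* in the HE pools thus lay slightly below the GFP-ve samples per *Chga*, and the KO values overlapped those of the HE pools. *Kif5c* overlapped too, at 2.57 and 6.21, 2.70 and 2.37, and 1.57 and 3.04. *Map2*, *Mapt* and *Stmn3* behaved otherwise. *Mapt* was at 36.0 and 36.7 per 1000 CP20M of *Chga* in the GFP-ve samples against 1.33 and 1.19 for HE and 1.57 and 3.91 for KO, and *Map2* at 38.5 and 24.6 against 2.51 and 0.83, and 2.24 and 2.93. *Stmn3* was at 2.57 and 3.25 in the GFP-ve samples, from 1 read each, against 0.98 to 1.34 in the 4 GFP+ve pools.

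With *Chga* as the scale, the log2 fold change from HE to KO was 0.03 (SE 0.47) for *Map1b*, 0.28 (SE 0.50) for *Kif1a* and 0.15 (SE 0.68) for *Stmn3*, turning the direction of all 3. It was -0.02 (SE 0.55) for *Nefm* and -0.21 (SE 0.68) for *Kif5c*. A positive value on this scale gives a change relative to *Chga* and need not be a rise in level. *Map2* and *Mapt* became positive too, at 0.79 and 0.95. Limma called 0 of these 7 and 0 of all genes, with 1626 genes at an unadjusted p under 0.05 and the adjusted p of the members from 0.41 to 0.98. This scaling moved the median of all genes tested from -0.18 to 0.82, so that all 7 members but *Mapt* lay below that median.

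**Figure D4:**
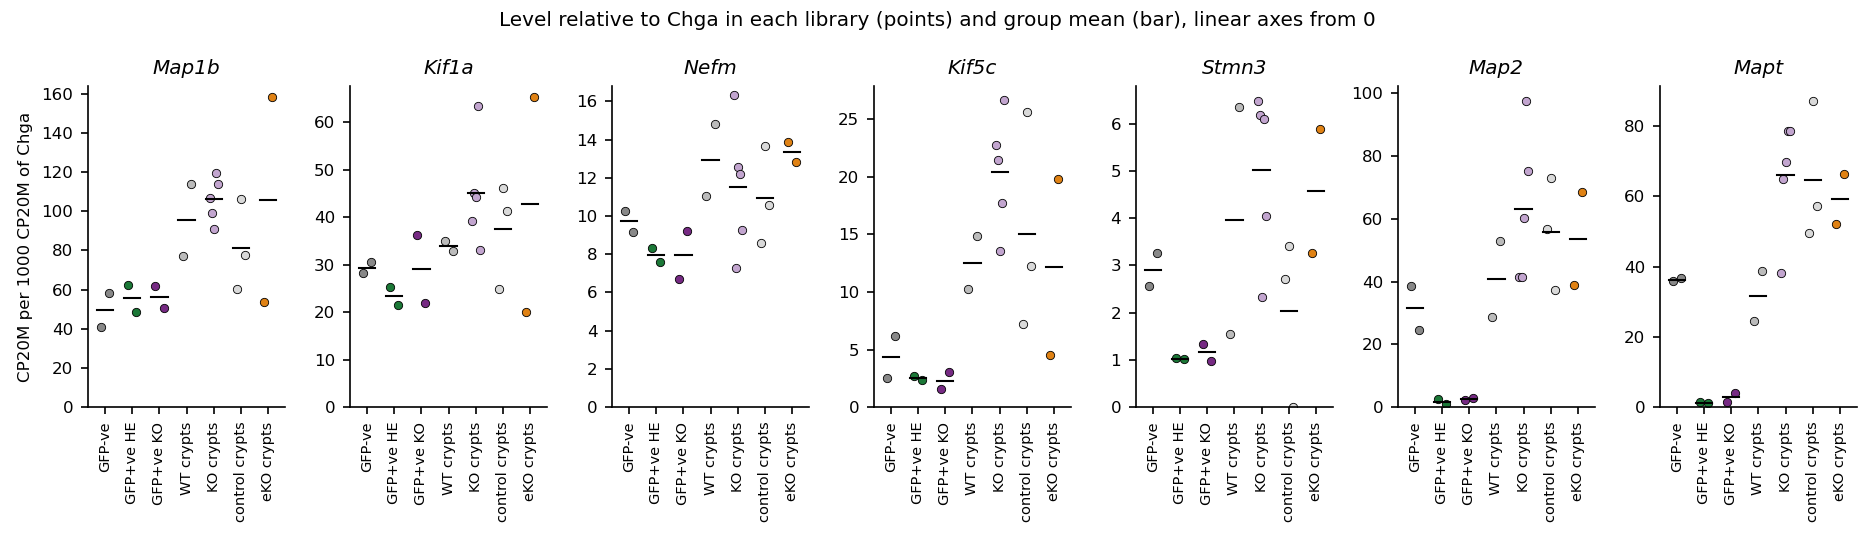
Level of 7 members per 1000 CP20M of *Chga* in every library (points) by group, with the group mean (bar), on linear axes from 0. *Map1b*, *Kif1a* and *Nefm* hold a similar level per *Chga* in all 6 sorted libraries. *Map2* and *Mapt* are lower per *Chga* in the GFP+ve pools than in the GFP-ve samples and crypts. In these pools *Stmn3* is lower than in the GFP-ve samples, and *Kif5c* is lower than in the crypts.

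In crypts, which hold all epithelial cell types, the members were low. Over the 12 libraries *Map1b* ranged from 131 to 379 CP20M (median 221.5), *Mapt* from 73 to 179 (median 136), *Map2* from 95 to 192 (median 127) and *Kif1a* from 49 to 139 (median 108). *Kif5c* ranged from 11 to 81, *Nefm* from 16 to 58, *Nefl* from 5 to 26, *Stmn3* from 0 to 23, *Dcx* from 0 to 17 and *Tubb3* from 0 to 13, with *Tubb3* at 0 in 5 libraries. For *Map1b*, *Map2*, *Nefm*, *Kif1a*, *Kif5c* and *Stmn3*, the crypt groups and the GFP-ve samples overlapped with their neighbours in the order of group means, and all lay below the GFP+ve pools. *Mapt* had the same order except that its WT crypts lay below the GFP-ve samples without overlap.

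In the crypts of the Olfr78-GFP line, *Mapt* was higher in KO than in WT mice. It was at 96 and 73 CP20M in WT mice and at 136, 179, 150, 155 and 136 in KO mice, and the groups did not overlap. WT mice averaged 84.5 ± 16.3 (SD, n = 2) and KO mice 151.2 ± 17.7 (SD, n = 5), and the log2 fold change was 0.77 (SE 0.18, adjusted p = 0.029, limma). Crypt genes were called up to an adjusted p of 0.2 if the fold change was over 1.5, and *Mapt* was the 1 member called of 6 tested, against 9.48% of all 15975 genes called and 7.95% called higher. EdgeR and DESeq2 each called it too. The call was lost without WT mouse 2 (0.60, adjusted p = 0.29), and the KO mice carry the cassette with its tau fusion while the WT mice do not. Whether reads of the cassette were counted on *Mapt* was not tested.

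The other members tested in these crypts were not called. *Map2* was at 112 and 100 CP20M in WT mice and at 114 to 192 in KO mice, without overlap, with a log2 fold change of 0.38 (SE 0.20, adjusted p = 0.27, limma). *Kif5c* had 0.39 (SE 0.33), *Kif1a* 0.15 (SE 0.33), *Map1b* -0.04 (SE 0.24) and *Nefm* -0.29 (SE 0.37). *Map1b* averaged 258 ± 60.8 CP20M in WT and 255.8 ± 75.9 in KO mice. Of 60 genes of the wider list tested, 3 were called higher and 1 lower, where 7.95% of all genes were called higher and 1.53% lower. Those called higher were *Kif13b*, a kinesin of the Kif1 kind (0.66), *Sptbn4*, a spectrin of the axon initial segment (0.91), and *Trak1*, which links mitochondria to kinesin (0.62). *Tubb2a* (-0.83) was called lower. Leukocyte markers summed to 665 to 804 CP20M in WT and 245 to 548 in KO crypts, with 3 of 4 tested called lower. Enteric neuron markers summed to 81 to 96 CP20M in WT and 65 to 202 in KO crypts. Of these, *Prph* was at 0 in both WT libraries and at 5 to 9 CP20M in KO crypts, from at most 3 reads each. *Ret*, at 70 and 64 in WT and 46 to 119 in KO crypts, overlapped. Fibroblast and muscle markers summed to 863 to 2216 in WT and 664 to 1569 in KO crypts. Of 4 tested, *Myh11* of smooth muscle, at 54 and 25 CP20M in WT and 107 to 247 in KO, was called higher, and 3 had a negative log2 fold change and were not called, among them *Dcn* at 1175 and 492 in WT and 139 to 736 in KO. The part of these markers in these results was not tested.

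In the crypts of the floxed line, which has no cassette, *Mapt* was at 110, 153 and 168 CP20M in controls and at 128 and 124 in eKO mice. The groups overlapped, and the control values also overlapped those of the KO crypts of the other line, though the tables of the lines were scaled separately. By limma 0 of 4 members tested were called, with 0% of all 15401 genes called and 127 (0.825%) at an unadjusted p under 0.05. EdgeR called 0 genes and DESeq2 6, none of them members. The log2 fold changes were -0.16 (SE 0.25) for *Mapt*, -0.12 (SE 0.25) for *Map2*, 0.14 (SE 0.37) for *Map1b* and -0.06 (SE 0.45) for *Kif1a*. Without the library labelled eKnockout mouse 2, with 1 eKO library left whose spread is taken from the controls, *Kif1a* was at -0.64, *Map1b* at -0.42, *Map2* at -0.32 and *Mapt* at -0.14. None of the 4 was called (adjusted p from 0.69 to 0.90, limma), with 6 genes called and 941 at an unadjusted p under 0.05.

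**Figure D5:**
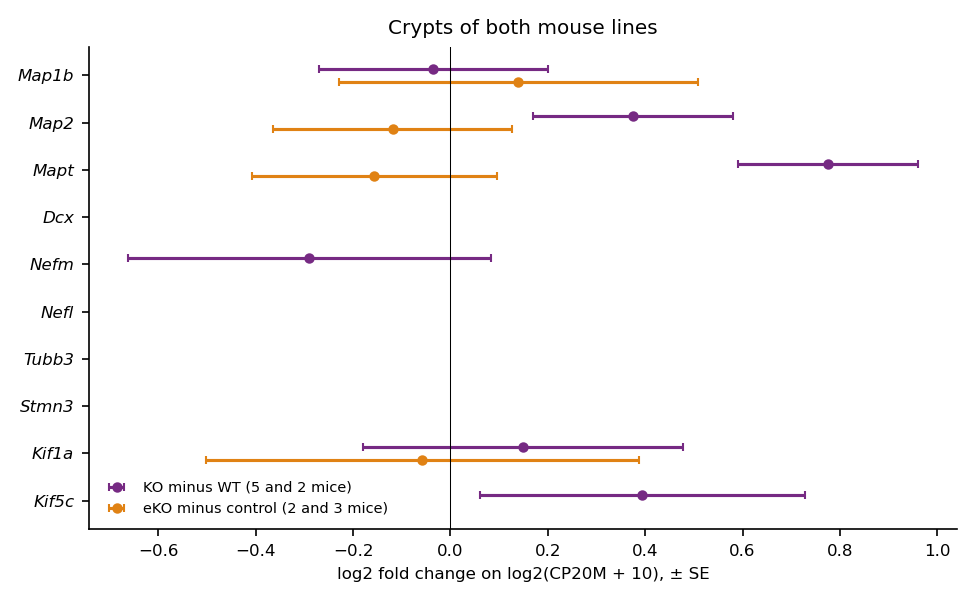
Log2 fold changes (points, log2(CP20M + 10)) with their SE (bars) of the members tested in crypts, for KO against WT mice (5 and 2) and eKO against control mice (2 and 3). *Mapt* in KO against WT mice, at 0.77, is the one furthest from 0, and members without a point were too low to be tested.

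Over both lines, with the line as a covariate, limma called 0 of 6 members, against 0.0243% of all 16447 genes called and 7.70% at an unadjusted p under 0.05. *Mapt* had a log2 fold change of 0.35 (SE 0.19, adjusted p = 0.65, limma). Without the library labelled eKnockout mouse 2 it was 0.46 (SE 0.20, adjusted p = 0.69, limma), and 0 members were called among 32 genes. The difference between the lines was tested directly, as the interaction of genotype and line. It called 0 of the 6 members, with 0.0304% of all genes called and 8.77% at an unadjusted p under 0.05. For *Mapt* the eKO effect minus the KO effect was -0.93 (SE 0.29, adjusted p = 0.56, limma). It was called without control mouse 1 (-1.10, adjusted p = 0.14), among 582 genes. Without the library labelled eKnockout mouse 2 it was also called (-0.91, adjusted p = 0.12), as was *Kif5c* (-1.34, adjusted p = 0.199), among 3298 genes where the fit of all 12 libraries called 5. EdgeR and DESeq2 each called 0 of the 6 members in both fits, with 9 and 38 genes called over both lines and 5 and 63 for the interaction.

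Across the 13 libraries of the sorted cells and the Olfr78-GFP crypts, the genes most like the mean profile of the 10 members on log2(CP20M + 10) were *Nrsn1*, with a Pearson correlation of 0.994, *Ypel4* (0.991), *Tph1* (0.991), *Serpinf2* (0.990) and *Nfasc* (0.990), of 18286 genes compared. *Nrsn1* encodes a neuronal membrane protein of vesicles, *Tph1* the enzyme of serotonin synthesis in enterochromaffin cells and *Nfasc* a cell adhesion protein of axons. *Nrsn1* was at 0 in both GFP-ve samples, at 357 and 387 CP20M in the HE pools and at 226 and 314 in the KO pools. *Tph1* was at 1484 and 1346 CP20M in the GFP-ve samples, at 120152 and 147883 in the HE pools and at 90407 and 48339 in the KO pools. Against the mean of the other 9, *Map1b* had a correlation of 0.992, *Kif1a* 0.982, *Nefm* 0.980, *Stmn3* 0.973 and *Kif5c* 0.964, and *Map2* (0.902), *Mapt* (0.899), *Nefl* (0.862), *Dcx* (0.611) and *Tubb3* (0.534) followed less closely. These correlations describe libraries that share the sorting and differ in depth, and most of their spread is that between the GFP+ve pools and the rest.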

How the data were processed

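RNA of sorted colon epithelial cells and of colon crypts was sequenced from libraries made with the Ovation Solo kit. Per the submitters' processing notes and the study's methods, reads were aligned to GRCm38 (mm10) with STAR and counted per gene with HTSeq. The deposited sorted-cell values are a signal, and the deposited crypt values were handled as a score, both in CP20M, which the authors made by scaling reads to 20000000 and which are rounded up. From the steps between low values, whole reads were recovered for 99.84% to 99.99% of values, counting those equal to a whole number of reads rounded up, within 1e-06 CP20M.

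Genes at 40 CP20M (2 CPM) or more in at least 2 of the libraries compared were tested, and for KO against HE pools those above 40 in all. Limma 3.58.1 (trend, log2(CP20M + 10)) in R 4.3.3 gave Benjamini-Hochberg adjusted p over all genes tested. EdgeR 4.0.16 and DESeq2 1.42.0 on the recovered reads, other pseudocounts, filters, scalings, blocks and left-out libraries were alternatives. Fits and read recovery were tested on simulated data. The members and lists were chosen with earlier results of these data known. Named genes are the members, their family relatives, listed genes past a threshold and the 5 genes most like the mean member profile. Markers and list members past the descriptive criterion were named after their values were seen. Gene spans and exon lengths came from a GRCm38 annotation. Read-ratio intervals cover counting error only. One marker gene of the lists is not reported here.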

Additional observations from a re-analysis of the deposited data

Results flagged for a closer look

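Of the 10 members, 1 had a library set apart from the others of its group. *Nefm* in 1 of the 5 KO crypt libraries was at 58 CP20M, against 16 to 27 in the other 4, a gap that exceeded Dixon's 95% limit for 5 values. The 5 KO crypts are the only group with enough libraries for this check, and chance gives such a gap in about 1 in 20 of the 10 sets looked at. The same mouse had the highest *Map1b*, *Kif1a*, *Kif5c* and *Stmn3* of the 5, at 379, 139, 81 and 23 CP20M, and the highest *Chga*, at 3552. Per 1000 CP20M of *Chga*, *Nefm* was at 16.3 in that library.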

How the results depend on the processing

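Of 73 values of the member counts under settings other than left-out libraries, 65 stayed within 1.5 times. Many of these were counts of 0 that stayed at 0. Such were all 12 for KO against HE pools, 9 for eKO against control crypts, 10 over both lines and 9 for the difference between the lines. For HE pools against GFP-ve samples, limma without a trend called 0 members in place of 4, and 287 genes in all became 77 with a pseudocount of 1, 522 with 40, 757 by edgeR, 691 by DESeq2, 523 with the replicate block and 117 with all 6 libraries in 1 fit. For KO pools against GFP-ve samples, 3 members in place of 0 were called by edgeR, DESeq2, the replicate block and the fit of all 6, and 1 without a filter. For KO against WT crypts, the replicate block gave 2 members in place of 1, adding *Kif5c* (0.86), and 1514 genes became 854 with a pseudocount of 40 and 914 with a filter at 100 CP20M. The criterion of means and SDs took 5 members in place of 3 with population SDs, and 2217 genes in place of 1571.

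A group left with 1 library was assumed to vary like the others in the fit. Leaving out 1 library moved the members called to 2 to 4 (HE pools against GFP-ve samples), 2 to 3 (KO pools against GFP-ve samples), 0 to 2 (KO against HE pools), 0 to 1 (KO against WT crypts) and 0 to 2 (difference between the lines). The log2 fold changes that turned with a library left out were, for KO against HE pools, *Map2* (-0.81 to 0.42) and *Mapt* (-0.36 to 0.29). For KO against WT crypts they were *Kif1a* (-0.36 to 0.66) and *Map1b* (-0.27 to 0.20), and for eKO against control crypts *Kif1a* (-0.64 to 0.52), *Map1b* (-0.42 to 0.70) and *Map2* (-0.32 to 0.078). Over both lines they were *Kif1a* (-0.18 to 0.28), *Kif5c* (-0.13 to 0.33) and *Map1b* (-0.17 to 0.22), and for the difference between the lines *Kif1a* (-0.79 to 0.37) and *Map1b* (-0.38 to 0.73). None of these was called.

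Other settings turned *Mapt* in KO against HE pools, to 0.12 by median-of-ratios rescaling, 0.22 by edgeR and 0.21 by DESeq2. Scaled to *Chga*, a setting chosen after seeing the data, *Kif1a* was at 0.28, *Map1b* 0.025, *Map2* 0.79, *Mapt* 0.95 and *Stmn3* 0.15. The replicate block turned *Map1b* (0.33) and *Nefm* (0.0093) in KO against WT crypts, *Kif1a* (0.20) in eKO against control crypts, *Nefm* (0.15) over both lines and *Map1b* (-0.018) in the difference between the lines. Same-numbered libraries correlated at 0.03, 0.02 and -0.24 in the 3 sorted comparisons, at 0.06 and -0.10 for KO and WT crypts, and at 0.59 and 0.36 for eKO and control crypts. They share only a number, and the block is given only here. With the numbers of the KO pools crossed, a pairing chosen after seeing the data, limma called 0 members and 85 genes. For these turns the cause was not tested. With 2 to 3 libraries in most groups and 532703 reads in KO pool 1, small differences in low members were not detectable at this depth.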
